A study of Mus musculus with 6 samples.

Results

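The clustered protocadherins are cell-surface adhesion proteins encoded by 3 neighbouring gene groups, alpha, beta and gamma, on mouse chromosome 18. The members were the protein-coding genes of the mouse RefSeq table for GRCm38.p6 (the assembly called mm10) whose symbols are Pcdha, Pcdhb or Pcdhg followed by digits, or by a, b or c and digits. There were 57 of them among 21887 protein-coding genes, namely 14 alpha, 22 beta and 21 gamma genes. They were chosen by name, with no measured value. All 57 lie between positions 36930285 and 37841873, a stretch of 912 kb.

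Each alpha and gamma gene has its own promoter and a long variable exon that encodes the whole outer part of the protein. That exon is spliced to a small set of constant exons at the far end of the group, which all genes of the group share. Beta genes consist of a single exon and have no constant part. In neurons each cell turns on a few of these promoters, a choice that involves DNA methylation, the DNA-binding protein CTCF and cohesin, and the resulting protein mix lets a neuron tell its own branches from those of others. The C-type genes Pcdhac1, Pcdhac2, Pcdhgc3, Pcdhgc4 and Pcdhgc5 lie last in their groups and are used more evenly across neurons.

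The libraries came from sperm of the epididymis and vas deferens, in which protamines replace most histones. They were 2 libraries from mice with K49A, an exchange of lysine for alanine in protamine 1, and 4 from wild-type C57BL6 mice (WT). After a DNase I treatment and decondensation, chromatin was digested with 5 and then 15 units of micrococcal nuclease (MNase), and DNA of the size wrapped by 1 nucleosome was sequenced, so enriched regions (peaks) mark places that kept nucleosomes. The deposited lists held 700 and 1017 peaks in K49A 1 and 2, and 11313, 20458, 22237 and 27903 in WT 1 to 4. Read depth is unknown, and no source used here gives ages or the number of animals behind a library. Peak lists of DNA hold no expression with which to check the cell type. Each p-value speaks only for the libraries that its test compares, at most these 6.

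The question was where across the protocadherin genes sperm chromatin of each genotype kept nucleosomes. In WT, most peaks stood over the variable ends of the genes, and the K49A lists had almost no peak in the whole stretch. K49A 1 had 0 peaks and K49A 2 had 1, against 8, 31, 41 and 40 in WT 1 to 4. The groups did not overlap, with a difference of -29.5 ± 7.69 peaks (K49A minus WT, SE). The two-sided exact permutation test over libraries gave p = 0.133, which is its lowest possible value with 2 and 4 libraries. Peaks covered 0 and 0.0219% of the stretch in K49A, against 0.502, 2.17, 2.77 and 2.10% in WT 1 to 4.

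The length of the K49A lists limits this comparison, and so does the weakest peak that each list holds. The lowest −log10 p of a listed peak was 4.73 and 4.55 in K49A 1 and 2, against 3.75, 3.48, 3.41 and 3.32 in WT 1 to 4. With every list held to a −log10 p of at least 4.73, the stretch had 0 and 1 peaks in K49A. WT 1 to 4 then had 3, 11, 15 and 6, so many of the WT peaks counted above were weaker than any in K49A 1. As a share of all peaks of a library, the protocadherin stretch held 0% in K49A 1 (95% exact binomial interval 0 to 0.526%, counting error only) and 0.0983% in K49A 2 (0.00249 to 0.547%). The WT shares were 0.0707, 0.152, 0.184 and 0.143%, all inside both K49A intervals, and the value of K49A 2 was above that of WT 1 (exact permutation test, two-sided p = 0.267). At the lowest and highest WT share, a list of 700 peaks would hold 0.495 to 1.29 peaks in the stretch and a list of 1017 would hold 0.719 to 1.88. When every list was cut to its 700 strongest peaks, no library of either genotype had a peak there. A change in the share was not detectable at these list lengths.

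**Figure D1:**
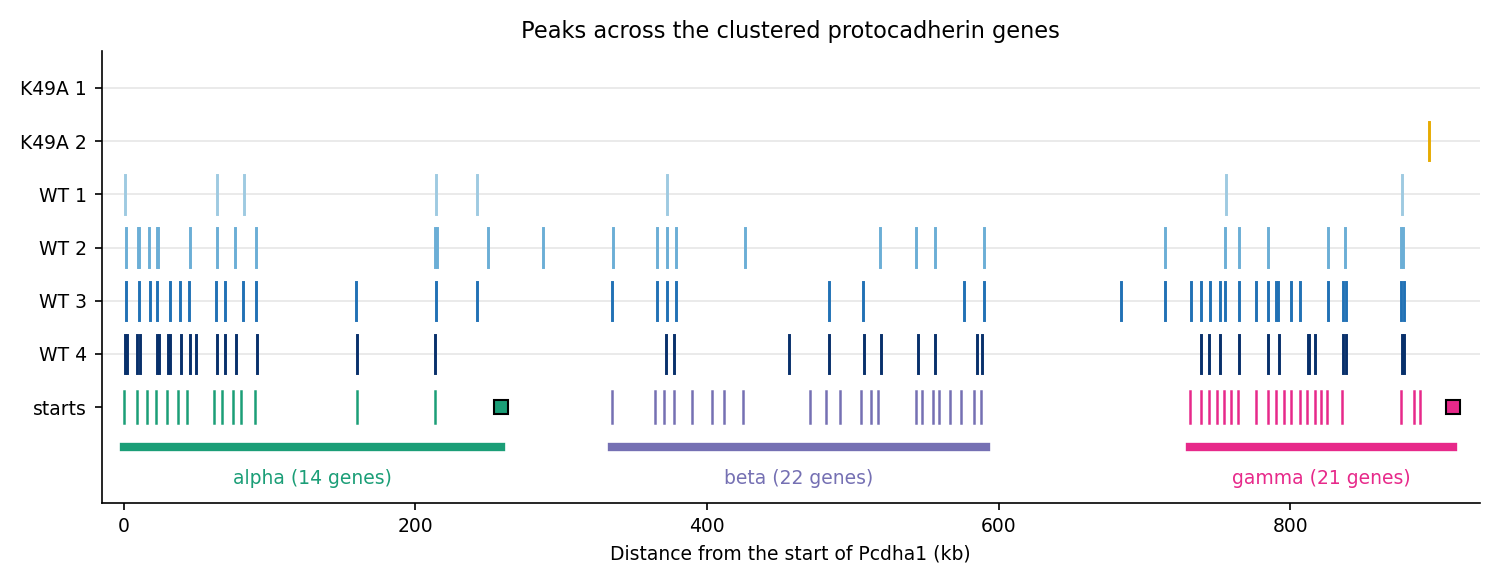
Peaks of each library across the protocadherin stretch, by distance in kb from the start of Pcdha1. Each vertical bar is the centre of 1 peak, the lower marks are the 57 gene starts, and squares mark the shared constant ends of alpha and gamma. K49A 1 has no bar and K49A 2 has 1, near the gamma end, while WT bars line up with the starts and none reaches a constant end.

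In WT the peaks gathered over the first 2.5 kb of the genes, counted from each gene's own start, a stretch meant to stand for the variable exon, since no exon ends were used. These windows make up 15.6% of the bases of the stretch and held 87.5 ± 3.92% of its peaks (SD, n = 4). By library, 7 of 8 peaks were centred there in WT 1, 27 of 31 in WT 2, 34 of 41 in WT 3 and 37 of 40 in WT 4. Each WT peak overlapped the window of at most 1 gene, so no peak was counted for several members. The window was set after the peaks had been seen, and the same window was applied to all other genes.

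The 2 constant ends had no peak in any of the 6 libraries. Far ends are seldom called in any gene, with 0.131 and 0.126% of other genes' far ends called in K49A, against 1.96, 4.01, 4.57 and 5.51% in WT 1 to 4, so no call at 2 ends is near the background. The 14 alpha genes end within 1240 bp of each other and the 21 gamma genes within 10 bp, so a single peak there would have called a whole group. The peaks nearest to the alpha end lay 4249 and 636 kb away in K49A 1 and 2, against 14.9, 7.70, 15.1 and 43.2 kb in WT 1 to 4. The peaks nearest to the gamma end lay 4903 and 16.3 kb away in K49A 1 and 2, against 34.4, 34.0, 33.4 and 2.04 kb in WT 1 to 4. The peak at 2.04 kb in WT 4 lay outside the cluster, within the gene Diaph1. All of chromosome 18 held 20 and 23 peaks in K49A 1 and 2, against 361, 653, 683 and 929 in WT 1 to 4. The distances therefore cannot be compared between genotypes apart from list length.

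Among the 57 members, 0 and 0 had a peak over their first 2.5 kb in K49A 1 and 2, against 7, 24, 35 and 31 in WT 1 to 4. The share among 17492 protein-coding genes outside chromosome 18 (other genes) was 0.32 and 0.252% in K49A, against 27.7, 40.9, 44.4 and 48.0% in WT. The difference in members was -24.25 ± 6.18 (K49A minus WT, SE; two-sided exact permutation test, p = 0.133). In WT the mean share was 42.5 ± 21.7% of members and 40.3 ± 8.85% of other genes (SD, n = 4), so by this window the 2 means were near each other. By library the members stood at 12.3, 42.1, 61.4 and 54.4% in WT 1 to 4. That was below other genes in WT 1 and above them in WT 2, 3 and 4. The window was set after the peaks of these members had been seen, so it cannot rank them against other genes.

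By the narrower window of 1 kb either side of a start, 0 and 0 members were called in K49A, against 4, 14, 22 and 17 in WT 1 to 4. The other genes stood at 0.314 and 0.2% in K49A and at 27.6, 40.8, 44.1 and 47.2% in WT. By this window the members stood at 7.02, 24.6, 38.6 and 29.8% in WT 1 to 4, below other genes in each WT library. The difference of K49A minus WT was -14.25 ± 3.79 starts (SE, exact permutation test, two-sided p = 0.133). At the far ends of the genes, 0 and 0 distinct ends were called in K49A, against 0, 3, 3 and 3 in WT, and all of these belonged to beta genes (exact permutation test, two-sided p = 0.4). Beta genes are 2340 to 5271 bp long, so the windows at their 2 ends can overlap. Each of these far-end calls came from a peak centred in the first 2.5 kb, and 0 WT peaks were centred in the rest of a beta gene.

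**Figure D2:**
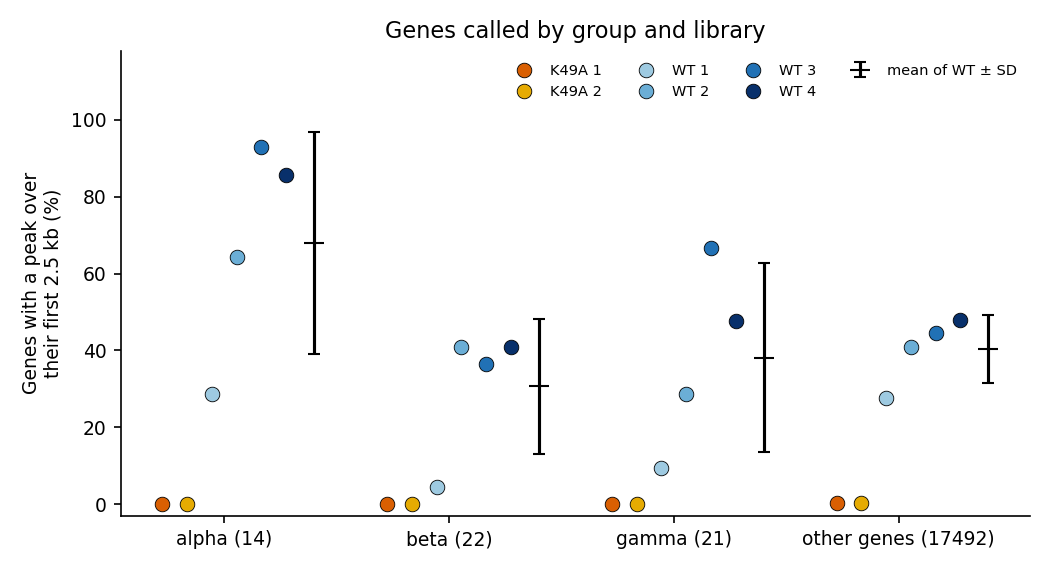
Percent of alpha, beta, gamma and other protein-coding genes with a peak over their first 2.5 kb, by genotype. Points are libraries, and the black mark is the mean of the 4 WT libraries with its SD. No member of any group was called in K49A, while in WT alpha averaged 67.9%, beta 30.7%, gamma 38.1% and other genes 40.3%.

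The alpha genes, whose variable exons share a single constant part, had the highest mean share of the 3 groups in WT by the 2.5 kb window, and this lead depends on that window. By 1 kb either side of the start, the WT mean was 35.7 ± 15.4% in alpha, 10.2 ± 7.76% in beta, 33.3 ± 22.3% in gamma and 39.9 ± 8.61% in other genes (SD, n = 4). The counts that follow are over the first 2.5 kb. Of 14 alpha genes, 0 and 0 were called in K49A, against 4, 9, 13 and 12 in WT 1 to 4, and each of the 14 was called in at least 1 WT library. Among other genes 58.1% were called in at least 1 WT library, and 43 of the 57 members were. Of 22 beta genes, 0 and 0 were called in K49A, against 1, 9, 8 and 9 in WT, and 13 were called in at least 1 WT library. Of 21 gamma genes, 0 and 0 were called in K49A, against 2, 6, 14 and 10 in WT, and 16 were called in at least 1 WT library. The difference in these counts between the groups of genes was not tested, since neighbours share a locus and are not replicates.

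**Figure D3:**
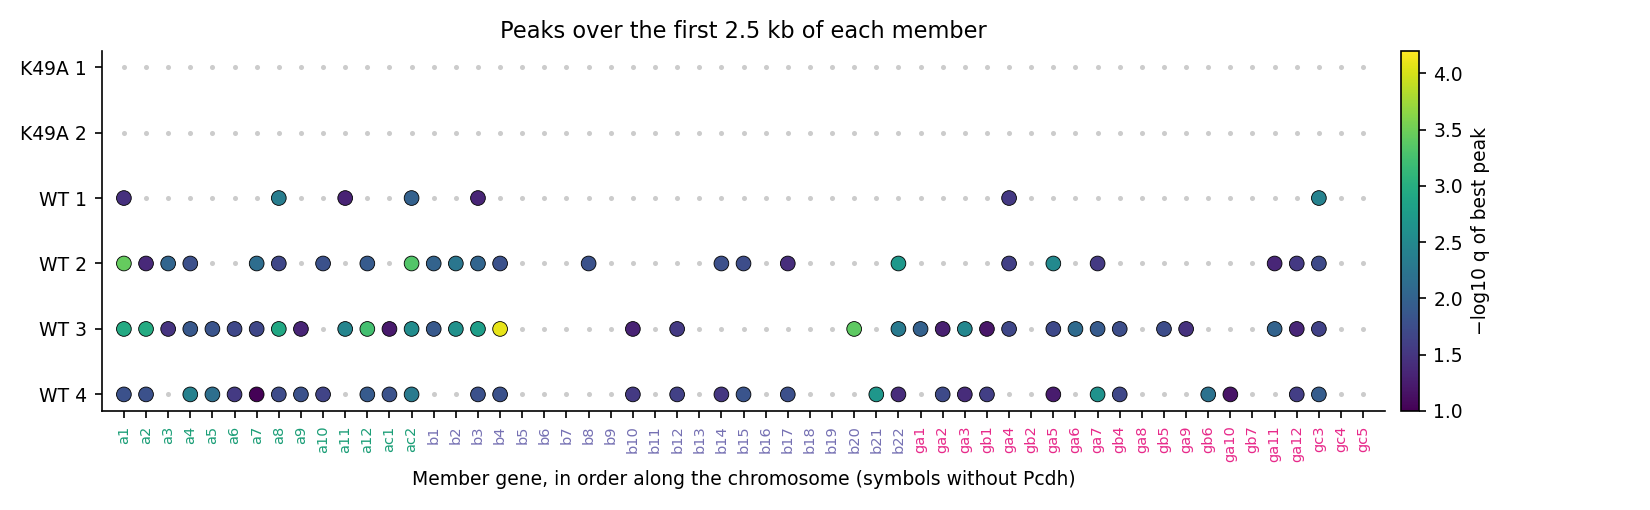
Calls of each of the 57 members over the first 2.5 kb in each library, in the order of the genes along the chromosome. A large dot is a peak, coloured by its −log10 q, and a small grey dot marks no peak. Both K49A rows hold grey dots alone, and in WT 43 members have at least 1 peak.

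Few members were called in every WT library. Over the first 2.5 kb, 5 members were called in every WT list and no K49A list, which were Pcdha1, Pcdha8, Pcdhac2, Pcdhb3 and Pcdhgc3, against 20.8% of other genes. By the window of 1 kb either side of the start, 3 members were called in this way, Pcdha1, Pcdhac2 and Pcdhgc3, against 20.9% of other genes. Both counts depend on WT 1, the shortest WT list. Without it the first 2.5 kb gave 14 members, against 30.3% of other genes, and the 1 kb window gave 6, against 30.7%. With the WT lists cut to the length of the shortest, the 1 kb window gave 0. No WT library called 14 members over the first 2.5 kb, 9 beta and 5 gamma genes, against 41.9% of other genes. In 3 or 4 WT libraries 15 members were called, against 35.2% of other genes. The members with no call were Pcdhb5, Pcdhb6, Pcdhb7, Pcdhb9, Pcdhb11, Pcdhb13, Pcdhb16, Pcdhb18 and Pcdhb19, with Pcdhgb2, Pcdhga8, Pcdhgb7, Pcdhgc4 and Pcdhgc5.

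The C-type genes differed among themselves. No K49A library had a peak over the first 2.5 kb of any of the 5. Pcdhac2, the last alpha gene, had fold enrichments of 3.04, 3.15, 2.88 and 2.84 in WT 1 to 4 (mean 2.98 ± 0.142, SD, n = 4). Its WT peaks overlapped one another, at 37143644 to 37145019 in WT 1, 37143576 to 37144118 in WT 2, 37143723 to 37144830 in WT 3 and 37143724 to 37144476 in WT 4. Pcdhgc3, the first gamma C-type gene, had folds of 3.11, 2.49, 2.55 and 2.66 in WT 1 to 4. Pcdhac1 was called in WT 3 (fold 2.64) and WT 4 (2.80), and the first 2.5 kb of Pcdhgc4 and of Pcdhgc5 held no peak in any of the 6 libraries. The folds are the authors' own values for each peak and describe it within its list.

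Among the other alpha genes, Pcdha1, the first of the cluster, had no peak in K49A and folds of 2.85, 2.93, 2.89 and 2.70 in WT 1 to 4. Its WT peaks spanned 36930814 to 36931488, 36930865 to 36932684, 36930977 to 36932670 and 36931947 to 36932652, and a second lay nearby in WT 4. Pcdha8, named after its values were seen, had folds of 3.12, 2.58, 2.90 and 2.64 in WT 1 to 4. Pcdha4 was called in WT 2, 3 and 4, with folds of 2.69, 2.64 and 2.89 for its strongest peak. Over the first 2.5 kb, Pcdha2, Pcdha7 and Pcdha12 were called in the same libraries. By 1 kb either side of the start, Pcdha2 and Pcdha12 had 2 WT calls each and Pcdha7 had 0.

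In gamma, Pcdhga4 was called in WT 1, 2 and 3, with folds of 2.67, 2.35 and 2.33. Pcdhga5 and Pcdhga7 were called in WT 2, 3 and 4, Pcdhga5 with folds of 2.51, 2.39 and 2.32 and Pcdhga7 with folds of 2.83, 2.88 and 2.98. Over the first 2.5 kb, Pcdhga12 was called in the same libraries, with 2 WT calls by 1 kb either side of the start. None of these genes had a peak over its first 2.5 kb in K49A. In beta, Pcdhb1 was called in WT 2 and 3 (folds 2.91 and 2.94) and so was Pcdhb2 (3.02 and 3.02). Pcdhb14 was called in WT 2 and 4 (2.97 and 2.71) and so was Pcdhb15 (2.92 and 2.85). These 2 were chosen by the window of 1 kb either side of the start, by which each had 1 WT call. Over the first 2.5 kb, Pcdhb4 and Pcdhb22, named after their values were seen, were called in more libraries, WT 2, 3 and 4. Their folds were 2.75, 3.32 and 2.78 in Pcdhb4 and 3.27, 2.97 and 2.54 in Pcdhb22. Pcdhb3, named after its values were seen, had folds of 2.78, 2.78, 2.83 and 2.68 in WT 1 to 4. The peak with the highest −log10 q of the cluster, 4.08, lay over Pcdhb4 in WT 3.

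In each WT library the median peak was centred farther inside alpha and beta genes than inside gamma genes. The median distance from the gene start to the centre of a peak, among peaks centred in the first 2.5 kb, averaged 1477 ± 253 bp in alpha, 1701 ± 255 bp in beta, 570 ± 97.6 bp in gamma and 361 ± 37.1 bp in other genes (SD over 4 WT libraries). By library, the alpha medians were 1254, 1376, 1440 and 1838 bp and the gamma medians 636, 513, 464 and 669 bp in WT 1 to 4, with no overlap. The difference of alpha minus gamma was 907 ± 115 bp (SE) and was positive in 4 of 4 WT libraries (exact sign-flip test, p = 0.125, the smallest it can give, Benjamini-Hochberg adjusted p = 0.139 over 10 tests). The 4 libraries called peaks in the same genes, so the SE and the test describe spread between libraries and not between genes. WT 1 rests on few peaks, 4 in alpha, 1 in beta and 2 in gamma.

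Within gamma, the median over all WT peaks was 440 bp in the A genes (21 peaks), 1476 bp in the B genes (8 peaks) and 1138 bp in the C-type genes (5 peaks). Within alpha it was 510 bp in the C-type genes (6 peaks). The short gamma distance thus came mainly from the A genes, and the order of the groups does not extend to each of their subgroups. The position within alpha genes also varied between WT libraries. At 1900 bp from the start, peaks covered 1, 5, 5 and 9 of the 14 alpha genes in WT 1 to 4, and at 1500 bp they covered 0, 7, 6 and 1. At both positions they covered 0 in both K49A libraries. The annotation used holds gene starts and ends only, so these distances were not set against exon ends.

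**Figure D4:**
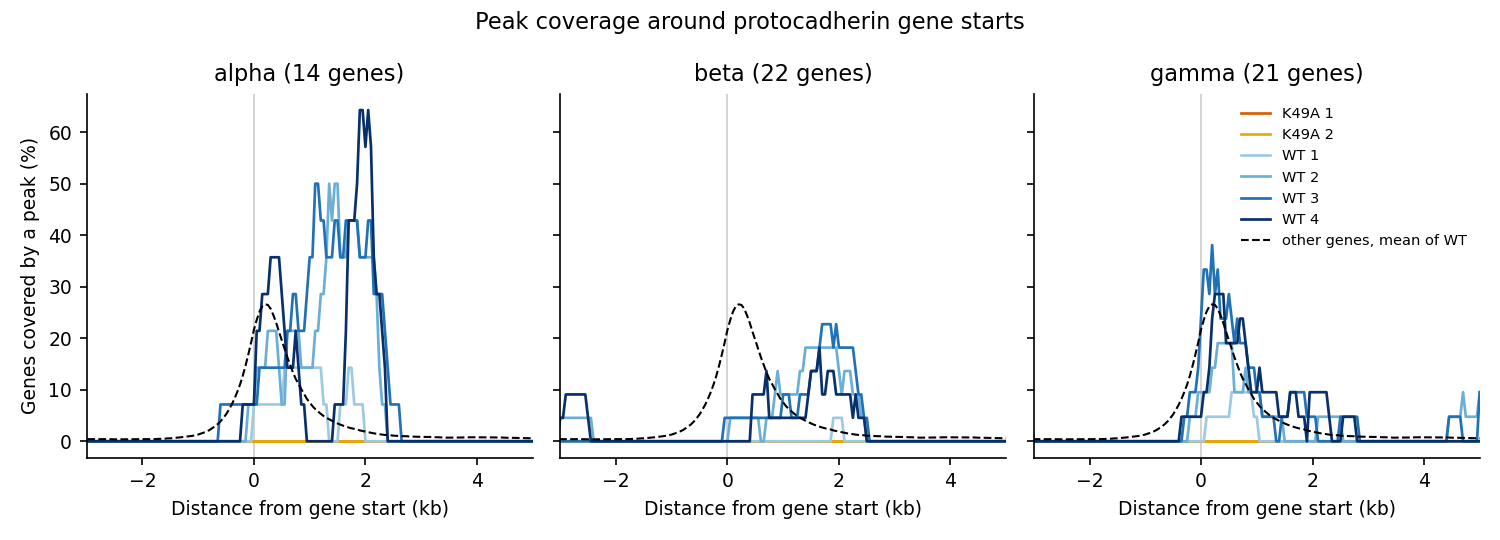
Percent of alpha, beta and gamma genes covered by a peak at each distance in kb from the gene start, by library, with the WT mean of other genes as a dashed line. The K49A lines lie at 0, while in WT most gamma coverage stands near the start and most alpha and beta coverage farther into the gene.

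Between the gene groups, peaks were few beside those over the first 2.5 kb of the genes. Of all WT peaks of the stretch, 0.833% lay between alpha and beta and 2.5% between beta and gamma. These gaps make up 8.35 and 15.4% of its bases. The gap between alpha and beta (76.1 kb) and the gap between beta and gamma (140 kb) together held 0 and 0 peaks in K49A, against 0, 2, 2 and 0 in WT 1 to 4 (exact permutation test, two-sided p = 0.8). One of these lay between alpha and beta, at 37217251 to 37217920 in WT 2. Another 2 lay at the upper end of Taf7, a gene of the general transcription machinery between beta and gamma, in WT 2 and WT 3. Over all chromosomes, WT 2 and WT 3 held 7.59 and 8.25 peaks per Mb. By this measure the 2 gaps together stood above the genome in WT 2 and WT 3. With 0 peaks, the gaps stood below it in WT 1, WT 4 and both K49A libraries. Beyond Pcdhac2 and before the alpha constant end, 3 WT peaks were found, and those of WT 1 and WT 3 overlapped at 37172390 to 37172588. The only K49A peak, in K49A 2, spanned 37825360 to 37825559, 5913 bp beyond the start of Pcdhgc5, with a fold of 3.05 and a −log10 q of 1.87. No WT peak overlapped it.

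The peaks of the cluster had a lower median −log10 q than their lists in each WT library. The median −log10 q was 1.49, 1.78, 1.83 and 1.72 for the cluster in WT 1 to 4, against 1.94, 1.98, 2.13 and 2.08 for the whole lists. With peaks limited to a −log10 p of at least 5, the cluster held 0 and 1 peaks in K49A, against 3, 6, 13 and 4 in WT. At a −log10 p of at least 6 it held 0 and 0 in K49A, against 0, 2, 4 and 0 in WT, and the groups overlapped. As a share of the peaks that passed 5, the cluster held 0 and 0.105% in K49A, against 0.0518, 0.0719, 0.131 and 0.0345% in WT, so K49A 2 was above 3 of the 4 WT libraries. At 5.5 the share of K49A 2, from 1 peak, was 0.124%, above the 0.0483, 0.0745, 0.120 and 0.0120% of WT 1 to 4.

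**Figure D5:**
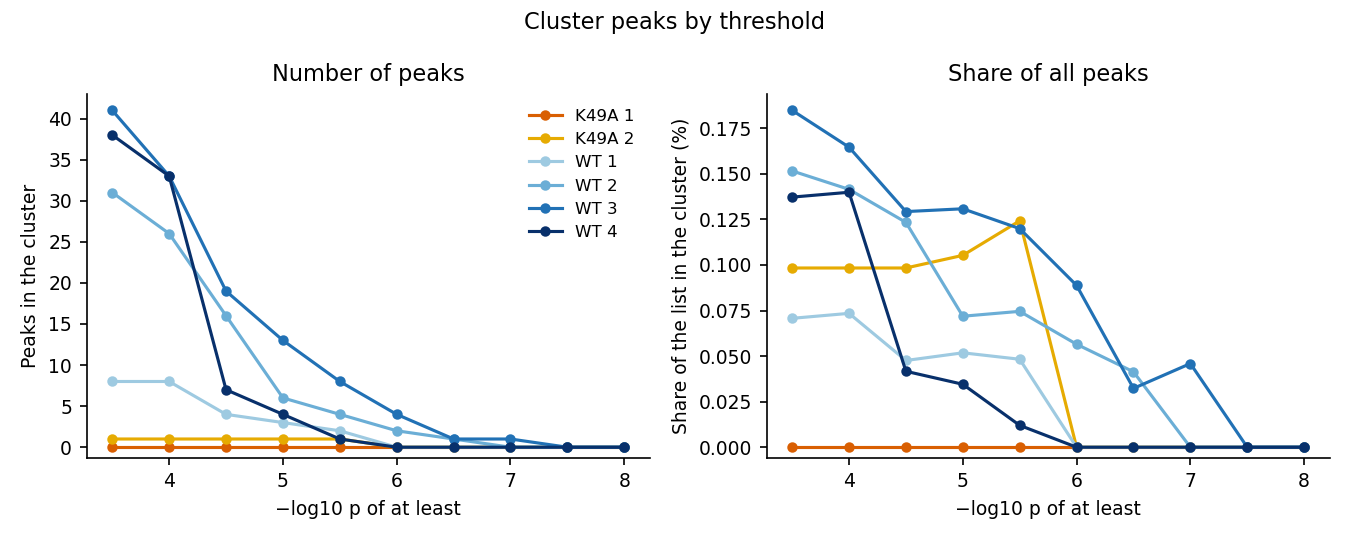
Peaks in the protocadherin stretch that remain as the −log10 p required of a peak is raised, by library, as a number (left) and as a share of all peaks that pass (right). At 5 the K49A libraries hold 0 and 1 peaks and the WT libraries 3 to 13, with shares of 0 and 0.105% in K49A and 0.0345 to 0.131% in WT, and at 6 both K49A libraries and 2 of the 4 WT libraries, WT 1 and WT 4, hold 0.

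Merging the lists gave 69 regions in the cluster, of which 36 (52.2%) were called in 1 WT library only and 5 (7.25%) in all 4 WT lists and neither list of K49A. Across the genome 58.0% of merged regions were called in 1 WT library only and 13.8% in all 4 WT lists and neither list of K49A. Per Mb, the cluster held 0 and 1.10 peaks in K49A, against 8.78, 34.0, 45.0 and 43.9 in WT 1 to 4. The 1 Mb before it held 0 and 0 in K49A, against 11, 17, 20 and 26 in WT, and the 1 Mb after it 0 and 0 in K49A, against 12, 15, 19 and 29 in WT. WT 1 had fewer peaks per Mb in the cluster than in either flank, and WT 2, 3 and 4 had more, but the cluster holds 62 protein-coding genes of the table, against 23 before and 15 after it. Per gene the order turned in WT 2, 3 and 4. The cluster had 0 and 0.0161 peaks per gene in K49A, against 0.129, 0.500, 0.661 and 0.645 in WT 1 to 4. The stretch before it had 0 and 0 in K49A, against 0.478, 0.739, 0.870 and 1.13 in WT, and the stretch after it 0 and 0 in K49A, against 0.80, 1.00, 1.27 and 1.93 in WT.

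Genes that act with the clustered protocadherins were called as whole genes, by a peak within 1 kb of either end. By that measure 0 and 0 clustered members were called in K49A, against 4, 16, 24 and 20 in WT. Among all genes the shares were 0.429 and 0.334% in K49A and 28.8, 43.0, 46.3 and 49.9% in WT. The clustered members stood at 7.02, 28.1, 42.1 and 35.1% in WT 1 to 4, below all genes in each WT library. In every WT list and neither K49A list, 3 of 57 clustered members, 1 of 12 non-clustered protocadherins (Pcdh1), 4 of 18 chromatin regulators and 8 of 13 cytoplasmic partners were called, against 21.8% of all genes. Without WT 1 these counts were 7, 1, 7 and 8, against 32.4% of all genes, and the count of clustered members was 0 with the WT lists cut to the length of the shortest. The 4 of 18 regulators were near the share of all genes. They were the cohesin subunit Smc3 (mean fold 3.19 ± 0.465), the insulator protein Ctcf (3.31 ± 0.220), the histone methyltransferase Ehmt2 (3.11 ± 0.286) and Smchd1 (3.13 ± 0.131), each over 4 WT libraries. Another 4 regulators, Rad21, Stag1, Dnmt1 and Dnmt3a, were called in no WT library. Among the 8 partners called in every WT list, the kinases Ptk2 and Fyn had mean folds of 3.58 ± 0.377 and 3.37 ± 0.440 in WT. Cyfip1 and Cyfip2, also among these 8, had mean folds of 3.41 ± 0.339 and 3.33 ± 0.559. The partners Abi2 and Marcks were called in no WT library. No gene of these 3 lists was called in K49A.

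Other clustered families were set beside the protocadherins by their distinct gene ends with a peak within 1 kb. Of 82 protocadherin ends, 0 and 0% were called in K49A, against 4.88, 20.7, 30.5 and 24.4% in WT 1 to 4. Among all 39002 ends of protein-coding genes, 0.223 and 0.187% were called in K49A, against 15.0, 22.5, 24.3 and 26.4% in WT. The 2 sets are unlike, since 57 of the 82 protocadherin ends are starts, far ends within 1 kb of each other being counted once. The alpha far end counts as 2 of them here, since Pcdha6 ends more than 1 kb beyond the other alpha genes. Starts make up a smaller part of all ends, and they are called more often than far ends. By 1 kb either side of a start, the members were below other genes in each WT library. WT 1 was the library in which the protocadherins stood below all genes by the widest margin. Hox ends, of genes that pattern the body axis, were called in 0 and 1.35% in K49A, against 17.6, 28.4, 36.5 and 29.7% in WT. The difference between families was not tested.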

How the data were processed

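MNase-seq peak lists of 2 K49A and 4 WT sperm libraries were used, grouped by genotype label and numbered by title. Per the submitters' processing notes, the tools were MACS2, SAMtools, Picard, BWA and FastQC, on mm10. Their versions and settings are not given in these sources. The deposited lists give a fold enrichment (a ratio) and −log10 p and −log10 q values per peak, made by the authors. No counts were used, and depth is unknown. Intervals cover counting error only.

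Peaks were placed on RefSeq genes of GRCm38.p6 with Python 3.11.15, numpy 2.4.6, pandas 2.3.3, scipy 1.17.1 and matplotlib 3.10.9. The table gives neither strand nor exons. The start of a member was its lower coordinate, since the higher ones are shared in alpha and gamma. For other genes, the 17492 whose start could be assigned were used. Overlap meant at least 1 bp. The libraries were compared by exact permutation over 15 splits, for which the smallest two-sided p is 0.133. The code was tested on simulated data.

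Members and lists were chosen with earlier results of these data known. Named were members with a start call in at least 3 WT or any K49A library, the 5 C-type genes and 4 beta genes. The 2.5 kb window was added after the data were seen, and genes named by it were chosen after their values were seen. Sequences of the members were not used here. Other thresholds, windows, equal list lengths, left-out libraries and a replicate block were tried.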

Additional observations from a re-analysis of the deposited data

Results flagged for a closer look

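In 2 of 31 sets of 4 WT values, 1 library stood apart from the rest by Dixon's test, where chance gives about 1 in 20. Both concern WT 1, the shortest WT list. It had 0 far ends of members with a peak, against 3 in each other WT library, all from peaks centred in the first 2.5 kb of beta genes. It had 1 beta gene with a peak over the first 2.5 kb, against 8 or more in the others. With the WT lists cut to the 11313 strongest peaks, the length of the WT 1 list, far ends called were 0, 2, 2 and 1 and beta genes called over the first 2.5 kb were 1, 4, 5 and 1 in WT 1 to 4. At equal length WT 1 matched WT 4 in beta genes and no longer stood apart by the same test in either count.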

How the results depend on the processing

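Across 16 settings, 157 of 178 values kept their direction, 21 were 0 and 0 reversed, but 70 differed from the reported value by more than 1.5 times or were 0. Most of these values could not reverse. K49A held 0 starts, far ends, members and peaks between the groups in every setting, so those differences could not be positive. The counts called in every WT list and no K49A list could not be negative. The difference in peaks of the cluster, -29.5 as reported, was -6 at a −log10 p of 5, -1.5 at 6 and -8.5 with WT lists cut to the shortest, and that in starts, -14.25 as reported, was -4, -0.75 and -4.75. With each list cut to 700 peaks, all 11 differences between K49A and WT and both counts of members called in every WT list and in no K49A list were 0. When a −log10 p of 6 was required, the differences in beta starts, gamma starts and far ends and both counts were 0. At 5, both counts were 1. With WT lists cut to the shortest WT list both counts were 0, and over the first 2.5 kb the count of starts was 5, settings chosen after seeing the data. Leaving out 1 library gave 3 to 6 called starts and 3 to 7 called members, highest without WT 1. The difference in peaks of the cluster ranged from -36.8 to -25.8, and that in the share from -0.137 to -0.0392 percentage points. With a replicate block that pairs title numbers 1 and 2, the difference in peaks was -19 (exact sign-flip p = 0.5), and 2 pairs cannot reach 0.05. The file names disagree with the titles and pair K49A 2 with WT 4. With that block, added after seeing the data, the difference was -23.5 (exact sign-flip p = 0.5), and that in peaks between the gene groups was 0. No label says that the numbers mark a shared animal or day. No p of the permutation tests could pass 0.05, so none bears on stability. The short K49A lists limit what can be seen there.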

Other observations

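Beside the cluster, the upper end of Diaph1, a regulator of actin assembly, carried a peak in each WT library and in no K49A library, with folds of 3.32, 3.34, 3.35 and 3.39 in WT 1 to 4. Before the cluster, the transcribed pseudogene Gm6756 had no peak in K49A and had peaks in WT 2, WT 3 and WT 4, with folds of 2.64 in WT 2 and 3.12 in WT 4. The 44 canonical histone gene ends were called in neither K49A library and averaged 30.1 ± 11.0% in WT (SD, n = 4). Over all gene ends the share was 0.223 and 0.187% in K49A and averaged 22.0 ± 4.98% in WT. In WT 1 the histone share of 13.6% was below the 15.0% of all ends. Ends of the Cdh cadherin genes were called in neither K49A library and averaged 17.9 ± 4.12% in WT. These differences were not tested.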
